A study of Mus musculus with 4 samples.

Results

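The platelet-derived growth factors and their receptors were read as 6 genes, the ligands Pdgfa, Pdgfb, Pdgfc and Pdgfd and the receptors Pdgfra and Pdgfrb, out of 18193 genes on an Affymetrix mouse expression array. The members were all 14 probe sets that the platform annotation gives to these genes alone, of 34945 probe sets that name 1 gene. Of the 14, 12 reached the detection floor on 1 or more arrays, and 9 did so on all 4. The floor of an array is the median of its non-control probe sets. Snai1 knockout (KO) and control mouse embryonic stem cells were compared in 2 settings. KO embryoid bodies and control embryoid bodies are aggregates formed in hanging drops and differentiated in suspension without added direction, collected on day 5. A KO teratoma and a control teratoma are tumours of mixed tissues, collected at week 6 after subcutaneous growth in a hind limb of nude mice, which were male and 6 weeks old. Controls carry the genotype labelled F/F and no other allele or agent is named. Nude mice lack a thymus and mature T cells but keep B cells, myeloid cells, vessels and stroma, so teratoma RNA can hold host transcripts. Whether a group rests on 1 stem cell clone, or a teratoma sample on 1 tumour, is not stated in the labels.

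PDGF ligands are secreted dimers that bind a pair of receptor tyrosine kinases on mesenchymal and other cells. PDGF-A and PDGF-C act mainly through PDGF receptor alpha, PDGF-B through both receptors, and PDGF-D mainly through receptor beta. In the mouse embryo, epithelia make PDGF-A and PDGF-C while the mesenchyme beneath carries receptor alpha, and endothelium makes PDGF-B that recruits receptor beta-positive mural cells to vessels. Receptor alpha also marks early mesoderm, primitive endoderm and oligodendrocyte precursors.

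Each of the 4 groups had 1 array. There is thus no spread between replicates, no test was run, and the differences are without a replicate check. Values are the authors' RMA log2 expression per probe set, and a difference of 1 on that scale is 2-fold. Where a gene had several probe sets, the one brightest on average stood for it, and a gene was called higher or lower at 2-fold. The floor was 5.04 for the KO teratoma and 5.08 for the control teratoma, and 4.73 for KO and 4.71 for control embryoid bodies. Across probe sets, the Pearson correlation was 0.985 between the teratoma arrays and 0.982 between the embryoid body arrays. Gapdh, whose 3' and 5' probe sets part where RNA is degraded, had a 3' excess of 0.40 in the KO teratoma and 0.65 in the control teratoma, and 0.10 in KO and 0.17 in control embryoid bodies. For Actb the excess was 0.85 in the KO teratoma and 1.03 in the control teratoma, and 0.31 in KO and 0.38 in control embryoid bodies. Snai1 itself has 1 probe set, at 3.45 in KO embryoid bodies, below the floor, against 4.78 in control embryoid bodies, slightly over it. In both teratomas it lay below the floor, and whether the probe set lies in the deleted part is not stated, so it checks the genotype labels weakly. Neuron, astrocyte and oligodendrocyte markers set the tissues apart. All 6, 5 and 8 of the listed markers on the array were at least 2-fold higher in the control teratoma than in control embryoid bodies.

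In day 5 embryoid bodies without Snai1, transcripts of both PDGF receptors and of the ligand gene Pdgfc were lower and those of the ligand gene Pdgfa were higher. Pdgfrb was 3.78-fold lower, Pdgfra 3.34-fold lower and Pdgfc 3.23-fold lower, while Pdgfa was 2.37-fold higher. Pdgfb and Pdgfd differed by under 1.1-fold. In bulk samples like these, fewer cells of a type and less RNA per cell cannot be told apart. In week 6 teratomas, no PDGF gene differed by 2-fold, and the largest difference was 1.17-fold, for Pdgfra. Of the 6 members, 1 was called higher and 3 were called lower in embryoid bodies, where 6.16% of all 12282 measured genes were called, 2.18% higher and 3.98% lower. In teratomas 0 of 6 were called, where 4.33% of 12197 measured genes were, 3.25% higher and 1.07% lower. The median difference of the 6 members was -0.82 in embryoid bodies, beside 0.03 over all genes, and -0.04 in teratomas, beside 0.06 over all genes.

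**Figure D1:**
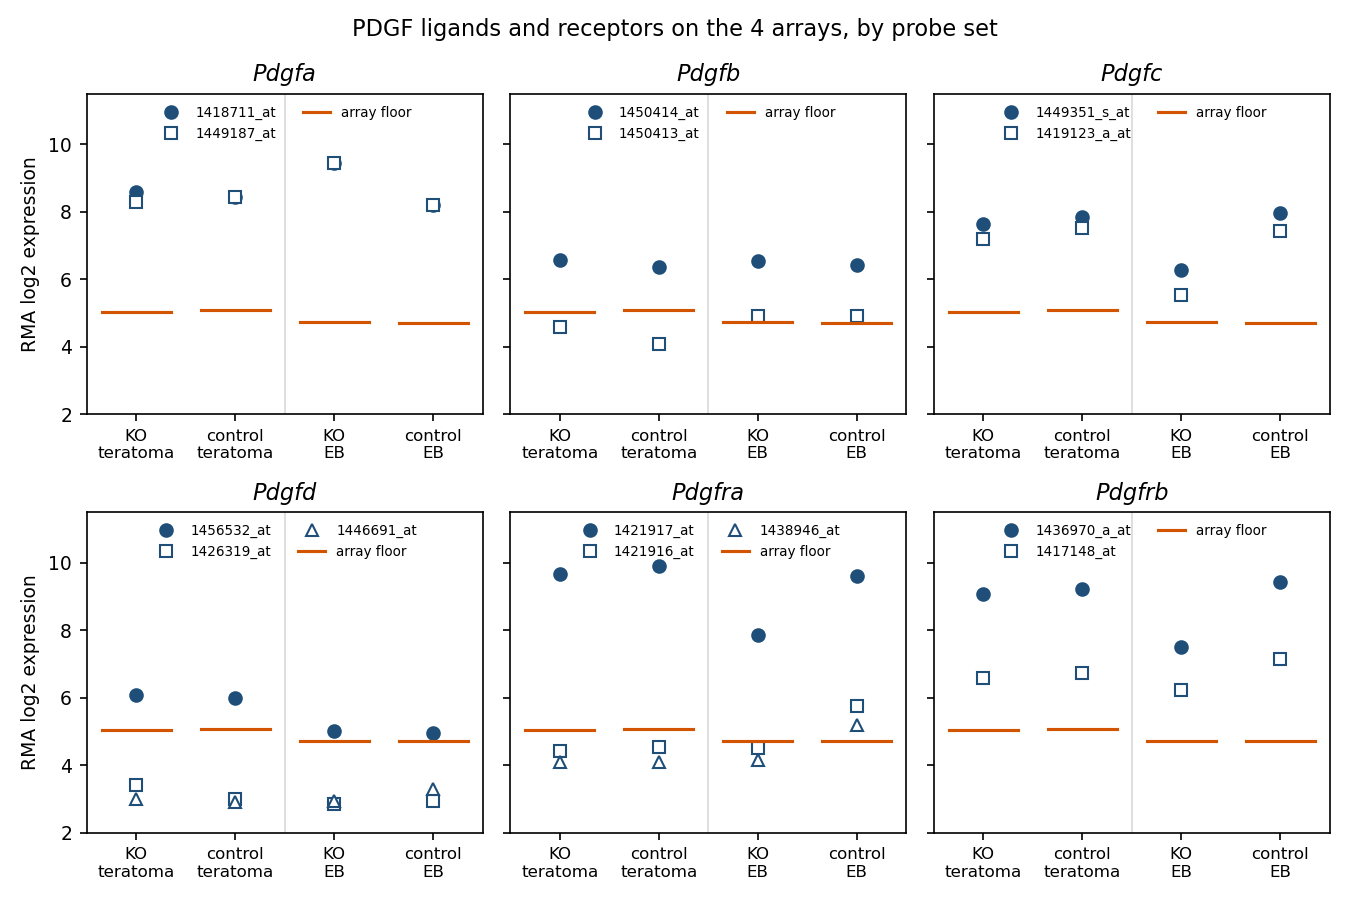
RMA log2 expression of every PDGF probe set (points) on the 4 arrays, 1 array a group, with each array's floor as an orange bar and the probe set used for the gene filled. The KO embryoid body point is the lowest of the 4 for Pdgfc, Pdgfra and Pdgfrb and the highest for Pdgfa, in the filled probe set of each.

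Among the ligands, Pdgfa encodes the A chain, which embryonic ectoderm and epithelia secrete. Its probe set 1418711_at read 8.59 in the KO teratoma and 8.45 in the control teratoma, and 9.45 in KO embryoid bodies against 8.20 in control embryoid bodies. The KO embryoid body array was thus the highest of the 4, and the other 3 lay within 0.39 of each other. The other probe set, 1449187_at, read 8.27 in the KO teratoma and 8.44 in the control teratoma, and 9.45 in KO against 8.19 in control embryoid bodies. Both gave the same difference in embryoid bodies, 1.25 and 1.26, but were of opposite sign in teratomas, 0.14 and -0.16. The annotation ties both to the same transcript record, as it does the pair for Pdgfb, the pair for Pdgfc and 2 of the 3 for Pdgfra, so paired probe sets are not independent. Only 154 of the 12282 genes, 1.25%, were as high or higher in KO relative to control embryoid bodies.

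Pdgfc encodes a ligand that is secreted in a latent form and freed by proteolysis. Probe set 1449351_s_at read 7.62 in the KO teratoma and 7.84 in the control teratoma, and 6.28 in KO embryoid bodies against 7.98 in control embryoid bodies. Probe set 1419123_a_at read 7.20 in the KO teratoma and 7.53 in the control teratoma, and 5.54 in KO against 7.43 in control embryoid bodies. On both, the KO embryoid body array stood lowest, by 1.69 and 1.88 below the control embryoid body array. Of the measured genes, 185, or 1.51%, were as low or lower. Both Pdgfc probe sets carry a suffix that marks sequence shared between transcripts, and whether these belong to Pdgfc alone was not checked.

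Pdgfb, the chain that endothelium and platelets release, was nearly level across the arrays. Probe set 1450414_at read 6.57 in the KO teratoma and 6.37 in the control teratoma, and 6.54 in KO against 6.42 in control embryoid bodies, a range of 0.20 over all 4. The other Pdgfb probe set, 1450413_at, read 4.91 in KO and 4.92 in control embryoid bodies, slightly over the floor, and lay below it in both teratomas. Pdgfd, which like Pdgfc is secreted latent, was measured by 1 of its 3 probe sets. That one, 1456532_at, read 6.08 in the KO teratoma and 5.99 in the control teratoma, and 5.01 in KO against 4.95 in control embryoid bodies. The embryoid body values lay within 0.3 of the floor, so Pdgfd was near the limit of detection there. The other 2 probe sets, 1426319_at and 1446691_at, lay below the floor on all 4 arrays.

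Of the receptors, Pdgfra encodes the kinase that binds PDGF-A, PDGF-B and PDGF-C. Probe set 1421917_at read 9.67 in the KO teratoma and 9.90 in the control teratoma, and 7.87 in KO embryoid bodies against 9.61 in control embryoid bodies. Control embryoid bodies and both teratomas were thus within 0.29 of each other, and KO embryoid bodies lay 1.74 below the lowest of them. Only 171 of the measured genes, 1.39%, were as low or lower in KO relative to control embryoid bodies. The other 2 probe sets were dim and crossed the floor. Probe set 1421916_at read 4.50 in KO embryoid bodies, below the floor, against 5.76 in control embryoid bodies, which bounds the difference at 2.04-fold lower or more. Probe set 1438946_at read 4.17 in KO embryoid bodies, below the floor, against 5.20 in control embryoid bodies, a bound of at least 1.38-fold lower. Both lay below the floor in the KO and the control teratoma, where 1421917_at was bright.

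Pdgfrb encodes the receptor for PDGF-B and PDGF-D that pericytes and smooth muscle cells carry. Probe set 1436970_a_at read 9.06 in the KO teratoma and 9.23 in the control teratoma, and 7.50 in KO embryoid bodies against 9.42 in control embryoid bodies. The KO embryoid body array again stood apart below the other 3, which lay within 0.36. Probe set 1417148_at read 6.59 in the KO teratoma and 6.73 in the control teratoma, and 6.24 in KO against 7.13 in control embryoid bodies. Its difference in embryoid bodies, -0.89, has the same sign but is under 2-fold. The 2-fold call for Pdgfrb therefore rests on the brighter, shared-sequence probe set, whose difference of -1.92 was reached or passed by 134 genes, 1.09%. With Pdgfrb read by 1417148_at alone and Pdgfc without a usable probe set, 1 of the members was called lower in embryoid bodies in place of 3.

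**Figure D2:**
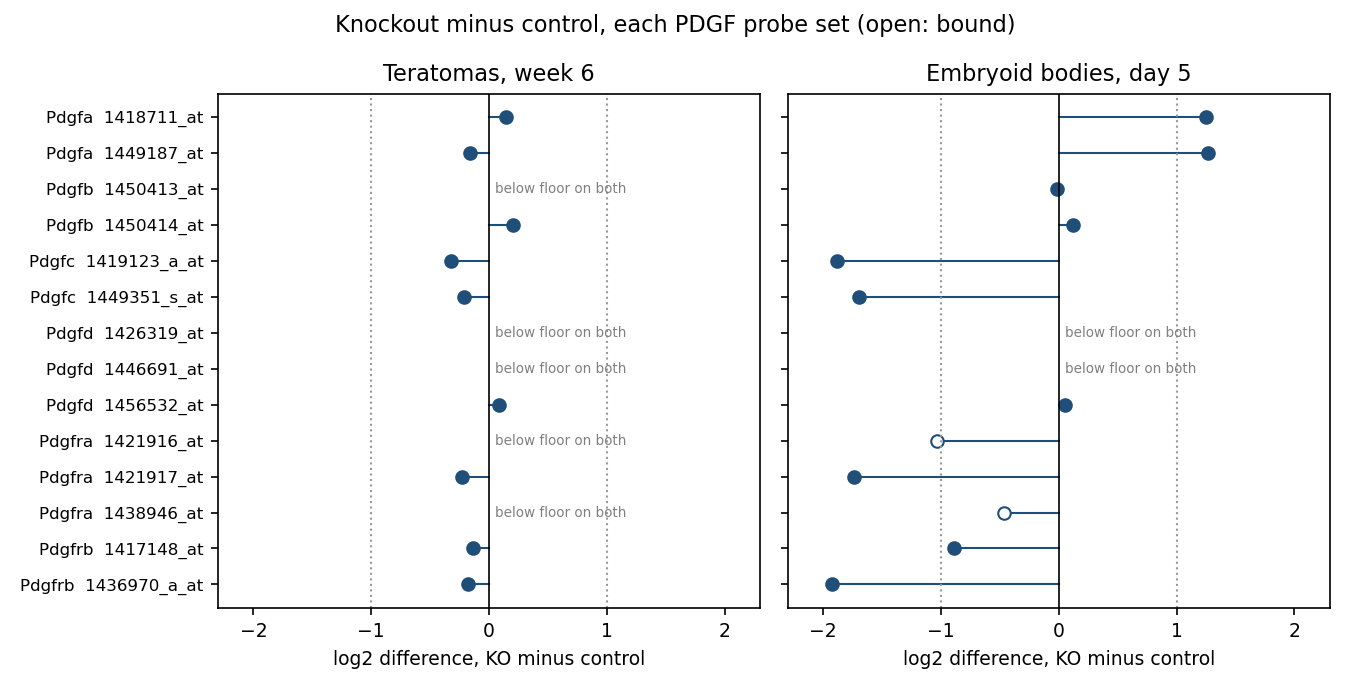
Log2 difference, KO minus control, of each PDGF probe set in teratomas (left) and embryoid bodies (right), with dotted lines at 2-fold and open points where the KO array lay below its floor and the value is a bound. In teratomas all plotted points lie between -0.32 and 0.20, and in embryoid bodies the Pdgfc, Pdgfra and Pdgfrb points lie on the left and the Pdgfa points on the right.

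**Figure D3:**
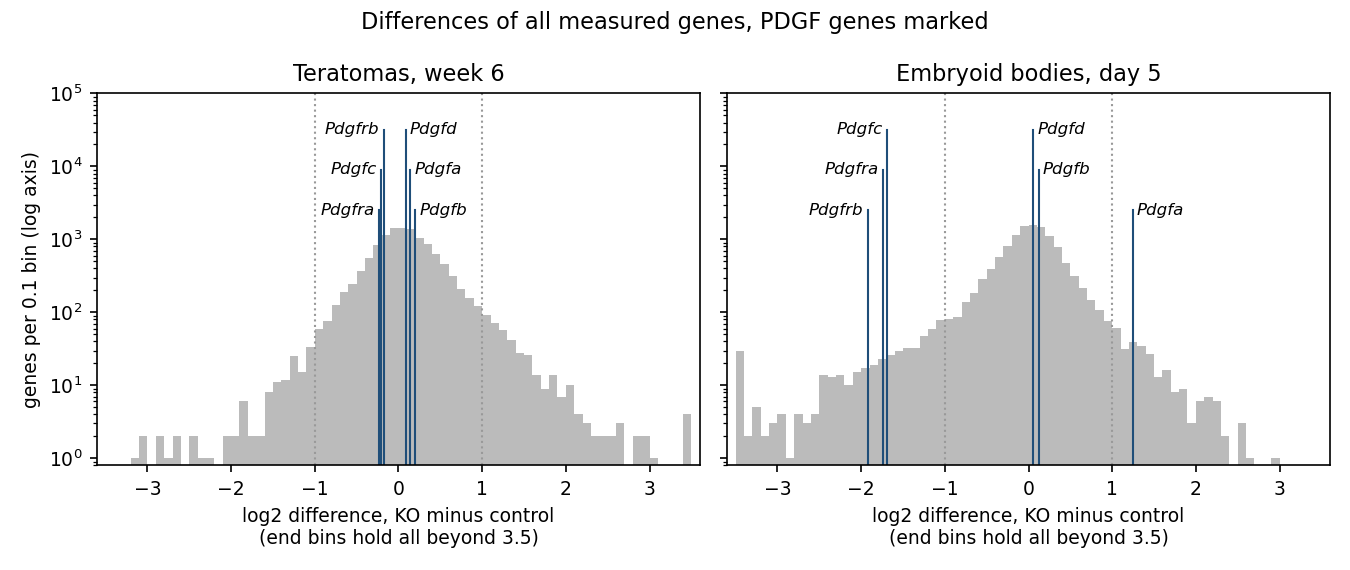
Histogram of log2 differences, KO minus control, of 12197 measured genes in teratomas (left) and 12282 in embryoid bodies (right), on a log count axis, with PDGF genes as blue lines and 2-fold as dotted lines. The 3 lowest PDGF genes, Pdgfrb, Pdgfra and Pdgfc, lie at -1.92, -1.74 and -1.69 in embryoid bodies. In teratomas they lie at -0.17, -0.23 and -0.21, where 23.4%, 18.9% and 20.2% of measured genes were as low or lower.

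The KO minus control difference of Pdgfrb was -0.17 in teratomas and -1.92 in embryoid bodies, which differ by 1.75. For Pdgfra it was -0.23 in teratomas and -1.74 in embryoid bodies, which differ by 1.51, and for Pdgfc -0.21 and -1.69, which differ by 1.48. For Pdgfa it was 0.14 in teratomas and 1.25 in embryoid bodies, which differ by -1.10. With 1 array a group these differences between settings were not tested. Across tissues within KO cells, Pdgfra was 3.47-fold, Pdgfrb 2.95-fold, Pdgfc 2.53-fold and Pdgfd 2.09-fold higher in the teratoma than in embryoid bodies, so 4 of 6 were called higher and 0 lower, where 39.7% of measured genes were called, 19.8% higher and 19.8% lower. The receptor calls depend on the probe set. With the mean of all probe sets, Pdgfra differed by 0.56 between the KO tissues, and Pdgfd fell below the floor and was not measured. In that setting 1 member, Pdgfc, was called higher and 1, Pdgfa, lower, where 1906 of all genes were higher and 2108 lower. Without shared-sequence probe sets, Pdgfc could not be measured, Pdgfrb differed by 0.35 and 2 members were called higher, where 2307 of all genes were. Within control cells only Pdgfd was called higher in the teratoma, by 2.05-fold, and 0 lower, where 35.1% of measured genes were called, 16.2% higher and 19.0% lower. In control cells Pdgfra, Pdgfrb, Pdgfc, Pdgfa and Pdgfb differed by at most 0.29 on the brightest probe set of each. The direction for Pdgfra turned to -0.68 with the mean of its probe sets, and its dim probe sets 1421916_at and 1438946_at gave bounds of -0.68 and -0.12. These tissue comparisons share the KO arrays or the control arrays with the comparisons above, and tissue, time, host and RNA extraction cannot be told apart. Centring the arrays on their medians moves the median difference of all genes to -0.46 in KO cells, in place of -0.15, and to -0.55 in control cells, in place of -0.18. Pdgfd is then under 2-fold in both, at 0.75 in KO and 0.67 in control cells.

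On the brightest probe set of each gene, the KO embryoid body array lay at least 1 below the lowest of the other arrays, with the other 3 within 0.5 of each other, for Pdgfra, Pdgfrb and Pdgfc. This pattern was described after the values were seen. It held for 37 of 13292 genes that reached the floor somewhere, which is 0.278%. The other probe sets of both receptors did not show it. Pdgfrb 1417148_at lay 0.35 lower in KO embryoid bodies than in the KO teratoma, and Pdgfra 1421916_at and 1438946_at reached the floor in control embryoid bodies alone. The Pdgfra, Pdgfrb and Pdgfc profiles were close to each other over the 4 arrays, at a Euclidean distance of 0.19 between Pdgfc and Pdgfrb, 0.38 between Pdgfra and Pdgfrb and 0.44 between Pdgfc and Pdgfra, after each gene was centred on its mean. Pdgfa lay far from all of them, at 2.28 from Pdgfc, 2.46 from Pdgfrb and 2.52 from Pdgfra.

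Upstream sequence from RefSeq (GRCm38.p6) was read for Pdgfra, Pdgfc, Pdgfa and Pdgfd, while that of Pdgfrb and Pdgfb was not used here. The 250 bases before the annotated start are printed for the 3 genes among those read that differed by 2-fold in embryoid bodies, on the gene's strand from 5′ to 3′. Capitals mark matches, on either strand, to the Snail-type E-box CAGGTG, to the general E-box core CANNTG that contains it, to the GC box GGGCGG or to the TATA box TATAAA. Pdgfra lies at chr5:75152001-75152250 on the plus strand and Pdgfc at chr3:81036166-81036415 on the plus strand. Pdgfa has a pair of annotated starts on the minus strand, with windows at chr5:138994282-138994531 and chr5:138994945-138995194.
Pdgfra: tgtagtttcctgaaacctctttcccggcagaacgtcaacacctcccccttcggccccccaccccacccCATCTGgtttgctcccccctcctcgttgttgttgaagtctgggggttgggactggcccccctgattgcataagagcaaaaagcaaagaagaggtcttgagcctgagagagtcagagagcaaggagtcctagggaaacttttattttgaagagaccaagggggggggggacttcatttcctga
Pdgfc: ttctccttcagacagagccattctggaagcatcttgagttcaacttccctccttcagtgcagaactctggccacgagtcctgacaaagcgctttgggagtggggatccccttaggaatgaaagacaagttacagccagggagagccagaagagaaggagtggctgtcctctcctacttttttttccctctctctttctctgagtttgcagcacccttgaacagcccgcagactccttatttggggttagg
Pdgfa window 1: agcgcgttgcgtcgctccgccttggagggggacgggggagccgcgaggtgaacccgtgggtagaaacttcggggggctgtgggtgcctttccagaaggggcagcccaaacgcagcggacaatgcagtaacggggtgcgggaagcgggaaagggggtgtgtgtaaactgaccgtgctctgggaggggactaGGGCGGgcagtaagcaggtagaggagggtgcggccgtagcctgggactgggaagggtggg
Pdgfa window 2: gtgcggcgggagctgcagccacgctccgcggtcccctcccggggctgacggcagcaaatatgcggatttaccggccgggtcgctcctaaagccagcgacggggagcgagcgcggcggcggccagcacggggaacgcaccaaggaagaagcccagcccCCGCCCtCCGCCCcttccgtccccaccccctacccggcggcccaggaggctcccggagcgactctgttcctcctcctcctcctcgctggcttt
The CAGGTG letters stand in none of these 4 windows or in that of Pdgfd, and in 17.2% of 32851 windows of the same length. The only E-box core is CATCTG, starting 182 bases before the Pdgfra start, and 66.2% of all windows hold a core. Pdgfa window 1 holds 1 GC box and window 2 holds 2, a match that 32.7% of all windows have. The share of G and C was 66.4% and 72.4% in the Pdgfa windows, 54.4% for Pdgfra and 50.8% for Pdgfc, beside a median of 52.4% over all windows. A missing match says only that these letters are not in this window.

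Genes around the members on the chromosome were read next, since the class III receptor kinase genes lie in clusters. Kit, the stem cell factor receptor gene beside Pdgfra, read 8.13 in the KO teratoma and 8.08 in the control teratoma, and 9.37 in KO against 8.52 in control embryoid bodies. It thus differed by 0.85, and by 1.15 on its other probe set, where Pdgfra differed by -1.74. Kdr, the VEGF receptor gene on the far side of Kit, differed by -0.23 in embryoid bodies, and Chic2, on the other side of Pdgfra, by -0.25. Gsx2, between Chic2 and Pdgfra, lay below the floor on all arrays. Csf1r, the macrophage growth factor receptor gene next to Pdgfrb, read 9.67 in the KO teratoma and 9.87 in the control teratoma, and 4.90 in KO against 7.13 in control embryoid bodies, a difference of -2.24. Its other probe sets differed by -1.10 and -0.24 in embryoid bodies. Hmgxb3, the next gene on that side, differed by 0.16. Ctso, a cathepsin gene beside Pdgfc, was also lower in KO embryoid bodies, at 6.55 against 8.09, as was Tdo2 beyond it, a tryptophan-degrading enzyme gene, at 7.19 against 10.46. On the other side of Pdgfc, Glrb lay below the floor in both embryoid body samples and differed by 2.65 in teratomas. No measured neighbour of Pdgfa, Pdgfb or Pdgfd differed by 2-fold in embryoid bodies, the largest difference being 0.90 for Cbx7 beside Pdgfb.

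Among other class III receptor kinases and their ligands, 2 of 4 measured genes were at least 2-fold lower in KO embryoid bodies and 0 higher, with a median of -0.70. These were Csf1r and its ligand gene Csf1, which differed by -1.50, whereas the stem cell factor gene Kitl differed by 0.10. The list is small and its median was -0.29 with the mean of all probe sets, -1.07 without shared-sequence probe sets, -0.39 with a higher floor, the 65th percentile of each array, and -0.0084 with the floor at the 25th percentile or none. In the first 3 of these settings 1 gene was called lower. In teratomas 0 of 4 were called. The VEGF family, the closest structural relatives of PDGF, had 0 of 7 measured genes called in embryoid bodies, with a median of -0.07, and 0 of 8 in teratomas. Vegfc, which acts on lymphatic endothelium, differed by -0.65 in embryoid bodies and Flt1 by 0.60.

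Processing enzymes, binding proteins and co-receptors of PDGF had a median of -0.70 in embryoid bodies, with 2 of 8 measured genes lower and 0 higher. The proprotein convertase gene Pcsk5 read 6.25 in KO against 8.50 in control embryoid bodies. Nrp1, a co-receptor of VEGF, semaphorin and PDGF signalling, read 10.08 in KO against 11.26 in control embryoid bodies, and its 4 probe sets differed by -0.63 to -1.19. With the mean of all probe sets, or without shared-sequence ones, 1 of these genes was called lower. Sparc, a matrix protein that binds PDGF, differed by -0.76, and St14, a protease that can cleave PDGF-D, by 0.77. In teratomas 0 of 8 were called. Pdgfrl, a receptor-like gene without a kinase, came nearest, at 6.03 in the KO teratoma against 6.94 in the control teratoma.

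Cytoplasmic transducers of the receptors were nearly flat. Of 26 measured genes in embryoid bodies and 25 in teratomas, 0 were called, with medians of 0.07 and 0.12. The Ras exchange factor gene Sos2 was the farthest from 0 in both, at 0.71 in teratomas and -0.61 in embryoid bodies. Attenuators had 0 of 8 called in embryoid bodies and 1 of 8 in teratomas, the cytokine signalling inhibitor gene Socs3, which read 8.88 in the KO teratoma against 7.82 in the control teratoma. That call was lost without shared-sequence probe sets and with quantile normalization. Early genes that growth factors induce, PDGF among them, had a median of 0.49 in embryoid bodies, with 3 of 9 measured genes called higher and 0 lower, and all 9 above 0. Junb, a subunit of the AP-1 transcription factor, differed by 1.32 and Ier2 by 1.31. The zinc-finger gene Egr2 was above the floor only in KO embryoid bodies, at least 2.11-fold higher, although its other probe set gave a bound of 0.10. In teratomas 2 of 8 were higher, Ier3 at 1.09 and Fos at 1.03, but 1 without shared-sequence probe sets and 0 with quantile normalization. Many other signals induce these genes, and the part of PDGF in them was not tested.

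**Figure D4:**
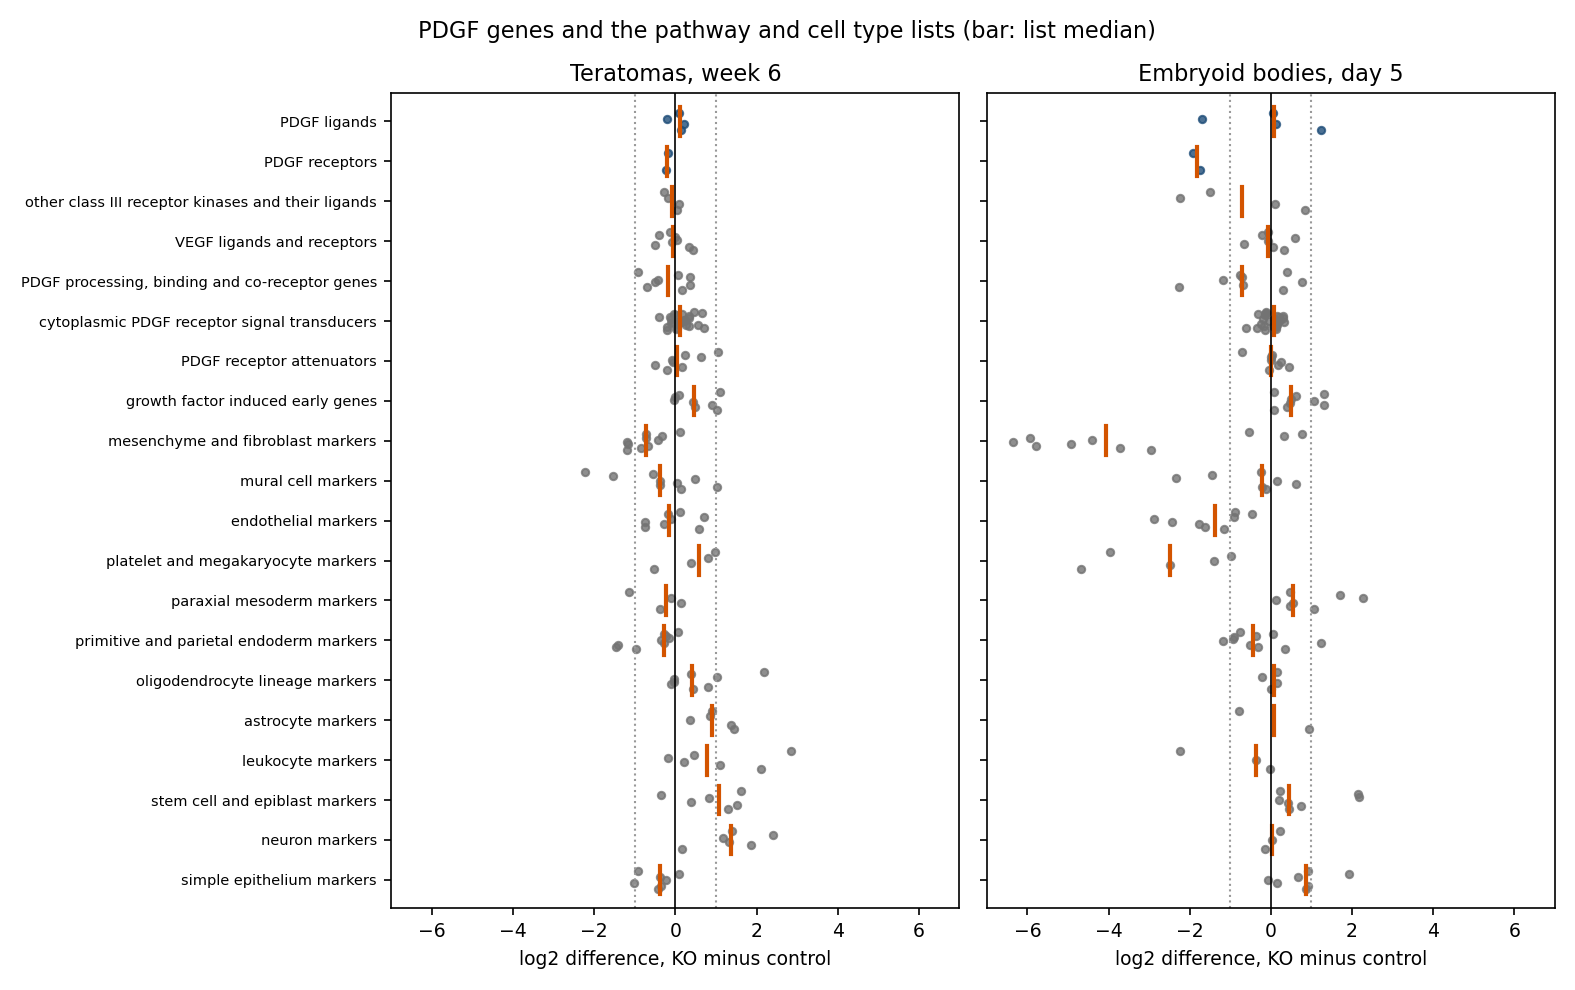
Log2 difference, KO minus control, of each measured gene (points) in the PDGF members (blue) and in 18 pathway and cell type lists (grey), in teratomas (left) and embryoid bodies (right), with list medians as orange bars. In embryoid bodies the mesenchyme list reaches -6.36, the transducer list stays within 2-fold, and in teratomas the PDGF points lie near 0.

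Cell types that carry these receptors or make these ligands were read beside the members. Mesenchyme and fibroblast markers had a median of -4.06 in embryoid bodies, with 7 of 10 measured genes lower and 0 higher, and 0 below the floor on any array. Their summed signal on the linear scale was 26494 in the KO teratoma and 38799 in the control teratoma, and 4572 in KO against 27336 in control embryoid bodies. Lum differed by -6.36, Postn by -5.94 and Col3a1 by -5.79, all matrix genes, which is more than the -1.92 of Pdgfrb and the -1.74 of Pdgfra. All 7 lower markers were matrix genes. The markers that are not matrix genes were not called, with Vim at -0.54, Twist1 at 0.32 and Prrx1 at 0.76 in embryoid bodies. In teratomas 3 of 10 mesenchyme markers were lower, Col1a1 at -1.20, Lum at -1.19 and Col5a2 at -1.17, where Pdgfra and Pdgfrb differed by -0.23 and -0.17. With the mean of all probe sets, or without shared-sequence ones, 5 were lower.

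Mural cell markers, which accompany Pdgfrb in vessel walls, had a median of -0.23 in embryoid bodies, with 2 of 7 lower. The lower ones were the smooth muscle genes Acta2 at -2.34 and Tagln at -1.44, while the pericyte genes Abcc9 and Kcnj8 lay below the floor in both embryoid body samples and the pericyte gene Rgs5 differed by -0.13. Summed signal of the mural markers was 4914 in the KO teratoma and 7104 in the control teratoma, and 3828 in KO against 10023 in control embryoid bodies. The brightest genes weigh most in such a sum, and Acta2 read 10.37 in KO against 12.71 in control embryoid bodies. Cspg4 differed by -0.23, Des by 0.15 and Notch3 by 0.62 in embryoid bodies. In teratomas 2 of 9 were lower, the smooth muscle myosin gene Myh11 at -2.23 and Acta2 at -1.53, and 1 was higher, Cspg4 at 1.03, with Pdgfrb under 2-fold. With the mean of all probe sets, 1 mural marker was lower in embryoid bodies, and 1 was lower and 0 higher in teratomas. Without shared-sequence probe sets, 1 was lower in each setting.

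Endothelial markers had a median of -1.39 in embryoid bodies, with 5 of 8 lower and all 8 below 0, and platelet markers one of -2.48, with 4 of 5 lower. With a higher floor the endothelial median was -0.75, with 3 lower. Both cell types release PDGF-B, and Pdgfb differed by 0.12 on the same arrays. Endothelial summed signal was 452 in KO against 1443 in control embryoid bodies, led by Cldn5 at -2.87 and Tek at -2.45, and platelet summed signal was 164 against 1783, led by Pf4 at -4.69. In teratomas 0 of 8 endothelial and 0 of 4 platelet markers were called.

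Simple epithelium markers, of the cell type that commonly makes PDGF-A, had a median of 0.86 in embryoid bodies, with 1 of 7 called higher, the tight junction gene Cldn4 at 1.92. Their summed signal was 25198 in KO against 19430 in control embryoid bodies. Stem cell and epiblast markers had 2 of 7 higher, Fgf5 at 2.17 and Otx2 at 2.16, and 0 lower, with a median of 0.44, and 1 higher without shared-sequence probe sets. Paraxial mesoderm markers, of a tissue in which Pdgfra is a known marker, had a median of 0.56, with 3 of 7 higher, Foxc1 at 2.28, Foxc2 at 1.71 and Mesp1 at 1.07, and 0 lower, although Pdgfra was lower. With a higher floor that median was 1.22. The mesoderm genes Tbx6 and Msgn1 lay below the floor on all 4 arrays. Primitive and parietal endoderm markers had 1 of 10 lower, the endocytic adaptor gene Dab2 at -1.18, and 1 higher, Sox17 at 1.23, around a median of -0.43. Without shared-sequence probe sets 2 were lower and 0 higher.

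Oligodendrocyte lineage markers, which include genes of Pdgfra-positive precursors, were measured in the teratomas, where 2 of 8 were higher in the KO, the myelin gene Mobp at 2.18 and Cspg4 at 1.03. Both calls were lost with the mean of all probe sets, which left 0 higher. Cspg4 is on the mural list too, so the same value is counted in both lists, and its other probe set gave 0.45. Olig1 was at 10.20 in the KO teratoma and 9.77 in the control teratoma, while it lay below the floor in embryoid bodies. Astrocyte markers had 2 of 5 higher in the KO teratoma, Gfap at 1.44 and S100b at 1.37, and neuron markers 5 of 6, led by Gad2 at 2.42, or 3 with the mean of all probe sets. Leukocyte markers had 3 of 6 higher, led by Ms4a1, which was above the floor only in the KO teratoma, at least 7.18-fold higher. Pdgfra differed by -0.23 on the same arrays. The part of any of these cell types in the PDGF values was not tested.

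Genes with the most similar 4-array profile were ranked by Euclidean distance on mean-centred log2 values among 12788 genes. Nearest to Pdgfra were Runx1t1, a transcriptional corepressor gene, at a distance of 0.10, then Serpinf1 at 0.21, the co-receptor gene Nrp2 at 0.22 and Vsir at 0.27. Nearest to Pdgfrb were the mesenchymal cadherin gene Cdh11 at 0.14, the cartilage collagen gene Col9a1 at 0.18, Pdgfc itself at 0.19 and the adaptor gene Pag1 at 0.21. Nearest to Pdgfc were Parva, an actin-binding focal adhesion gene, at 0.15, Akr1b8 at 0.16, Pag1 at 0.17 and Gpx8 at 0.17. All of these were lower in KO than in control embryoid bodies, from -1.54 for Parva and Gpx8 to -2.06 for Cdh11, and differed by at most 0.36 in teratomas. The ranking used these same 4 arrays, so both features follow from how the genes were picked.

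Nearest to Pdgfa were Tgfa, an EGF receptor ligand gene, at 0.20, Rab27a at 0.20, Slco5a1 at 0.22 and Tpd52 at 0.24. Tgfa read 6.95 in the KO teratoma and 6.84 in the control teratoma, and 7.89 in KO against 6.82 in control embryoid bodies. Pdgfb and Pdgfd varied little or with tissue only, and many genes lay as near, such as Mrfap1 at 0.03 for Pdgfb and Slc9a5 at 0.04 for Pdgfd. With 4 arrays, likeness of this kind describes these samples only, and the match to each member follows from the ranking itself.

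**Figure D5:**
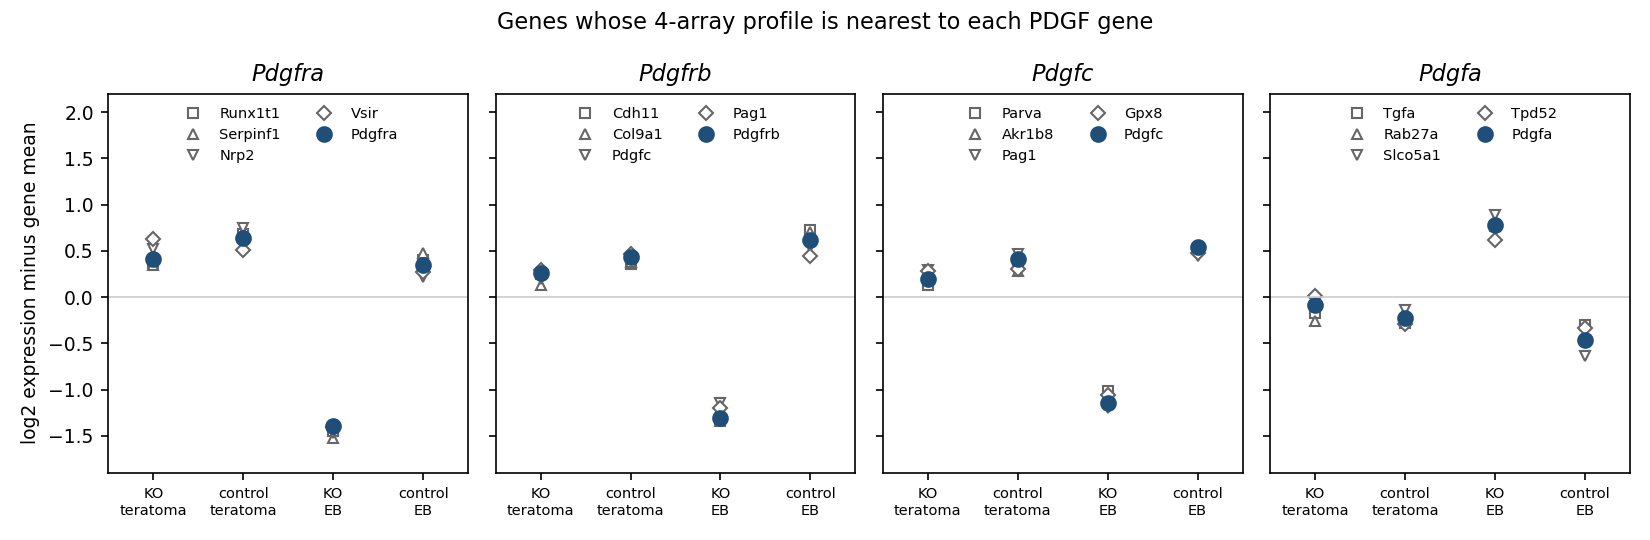
Log2 expression minus the gene's own mean on the 4 arrays for Pdgfra, Pdgfrb, Pdgfc and Pdgfa (filled) and the 4 genes nearest to each (open). The KO embryoid body value of Pdgfra, Pdgfrb and Pdgfc lies more than 1 below their mean with the nearest genes beside it, and that of Pdgfa lies above its mean. The open genes were picked for this likeness.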

How the data were processed

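The authors deposited 1 table of log2 expression values per probe set, with 1 array in each of 4 groups. RMA in the affy package gave these values, per the submitters' processing notes, by a procedure that subtracts background, equalises array quantiles and combines the probes of a set. Versions, chip definition and which arrays were normalized jointly are not given in the sources here. Per the labels' protocols, teratoma RNA was extracted with Trizol and embryoid body RNA on columns, and 250 ng of total RNA was amplified and labelled with biotin. Array signal has no read depth, and the number of arrays limits precision.

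Of 45101 probe sets, 64 were controls, 34945 named 1 gene, 932 named several and 9160 named none in the annotation used. The Entrez numbers of 34741 matched a RefSeq gene table. Values below an array's floor, its median over non-control probe sets, were raised to it before subtraction, and a difference with 1 array below is a bound. No fold is given where both lay below. Named genes are the members, the Snail family, up to 4 genes with the largest absolute difference per list and comparison, the 4 nearest profiles per member and chromosomal neighbours from the RefSeq table. Other genes were picked with their values in view. Members and lists were chosen with earlier results of these data known. Cspg4, Csf1r and Sparc are each on 2 lists. Listed genes without a usable probe set were not analysed here. Python 3.11.15, numpy 2.4.6 and pandas 2.3.3 were used. The call step was checked on simulated data, where bright genes carried shifts above 2-fold with little noise. That check does not measure how reliable the calls on these arrays are. Alternatives covered the probe set per gene, scaling, floor and fold threshold.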

Additional observations from a re-analysis of the deposited data

Results flagged for a closer look

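Genes and lists are given here where the KO minus control log2 difference had opposite signs in teratomas and embryoid bodies and passed, in both, the pooled spread between probe sets of a gene, which is 0.28 in teratomas and 0.29 in embryoid bodies. No PDGF gene met this. With 1 array a group, the difference between settings was not tested, and values are teratomas first. Each gene is read on its brightest probe set, and other probe sets of some genes did not pass the spread in both settings. Other Pax3 probe sets gave -0.07 and -0.12 in teratomas. In embryoid bodies, 1 other probe set of Epcam gave 0.01 and 1 of Socs3 gave -0.23.

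Of the PDGF pathway lists, the receptor-like gene Pdgfrl had -0.91 in teratomas and 0.39, a bound, in embryoid bodies. The protease gene St14 had -0.51 in teratomas and 0.77 in embryoid bodies. The transducer Sos2 had 0.71 and -0.61, the transcription factor Stat3 0.64 and -0.31, and the attenuator Socs3 1.06 and -0.72.

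Of the epithelial genes, Cdh1 had -0.44 in teratomas and 0.86 in embryoid bodies, Epcam -0.37 and 0.92, Cldn6 -0.92 and 0.93, and Krt19 -0.37 and 0.66, and the simple epithelium median was -0.37 and 0.86. Of the vessel and blood genes, Pecam1 had 0.59 and -1.15, Emcn 0.71 and -0.91, Notch3 -0.39 and 0.62, Itga2b 0.80 and -2.48, and Plek 0.97 and -3.95, the last a bound. The platelet median was 0.59 and -2.48, and the leukocyte median 0.78 and -0.37.

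Of the other markers, Sox17 had -1.42 in teratomas and 1.23 in embryoid bodies, Otx2 -0.35 and 2.16, Pax3 -1.15 and 0.47, Meox1 -0.37 and 0.56, Prrx1 -0.73 and 0.76, and Slc1a3 0.89 and -0.78. The embryoid body values of Pax3 and Meox1 are bounds, since control embryoid bodies lay below the floor.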

How the results depend on the processing

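No paired analysis was possible because each group has 1 array, and for the same reason no replicate could be left out. No called result reversed, but some uncalled values changed sign. The teratoma difference of Pdgfa was -0.01 with the mean of all probe sets, in place of 0.14. Under some alternatives the teratoma minus embryoid body differences of Pdgfa, Pdgfc, Pdgfra and Pdgfrb in control cells changed sign. So did that of Pdgfb in KO cells. The embryoid body astrocyte median, 0.08 in the main setting, was below 0 in 2 of the settings below. Across the alternatives the embryoid body difference, KO minus control, ran from 1.22 to 1.25 for Pdgfa, -1.79 to -1.56 for Pdgfc, -1.76 to -1.34 for Pdgfra and -1.94 to -0.89 for Pdgfrb. The causes of the shifts below were not tested. With the mean of all probe sets, the embryoid body values were -1.34 for Pdgfra, -1.41 for Pdgfrb, -0.29 for the class III median, -2.99 for mesenchyme and -1.03 for endothelium, and the teratoma neuron median was 1.01. Pdgfra, teratoma minus embryoid bodies, was then 0.56 in KO and -0.68 in control cells, with 1 member higher and 1 lower in KO and 0 higher in control cells. Pdgfd was below the floor in that setting and not measured. Without shared-sequence probe sets, Pdgfc could not be measured, Pdgfrb was -0.89 and 1 member was lower in embryoid bodies. The medians were then -1.07 for class III, -1.69 for endothelium and -0.62 for astrocytes in embryoid bodies, and 1.21 for astrocytes and 0.46 for leukocytes in teratomas. Pdgfrb was then 0.35 and 2 members were higher in the KO tissue comparison. Median centring gave 1 member lower in KO and 0 higher in control cells between tissues, quantile normalization gave 0 higher in control cells, and a 1.5-fold threshold gave 1 lower in KO cells. With the floor at the 25th percentile, or no floor, the class III median was -0.0084 and the platelet median -2.005 in embryoid bodies. With the floor at the 65th percentile, embryoid body medians were -0.39 for class III, -3.52 for mesenchyme, -0.75 for endothelium, 1.22 for paraxial mesoderm, -0.65 for astrocytes and -0.89 for leukocytes. Teratoma medians were then 0.14 for platelets, -0.55 for paraxial mesoderm and 0.68 for stem cells, and 0 members were higher in the control tissue comparison. Pdgfd was below that higher floor and not measured. Genes called, higher and lower, were 169 and 310 in embryoid bodies and 262 and 76 in teratomas with that floor, in place of 268 and 489, and 397 and 131. At 1.5-fold they were 850 and 1024 in embryoid bodies and 1256 and 616 in teratomas. Lower calls in teratomas were 86 with the mean of all probe sets and 206 with quantile normalization. Between tissues, median centring gave 2036 higher and 3786 lower in KO cells, and 1533 and 4100 in control cells, in place of 2566 and 2564, and 2098 and 2456.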
